A study of Mus musculus with 8 samples.

Results

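The genes described here encode the heat shock transcription factors, the HSP90, HSP70, HSP110, HSP60 and small heat shock proteins, the J proteins, the CCT chaperonin and the BAG co-chaperones. They were taken by symbol from the table of all genes, which gave 92 of its 26642 rows, and 72 of them passed the filter on low counts. Messenger RNA had been sequenced from CT26, a mouse colon carcinoma cell line kept in RPMI medium with serum. WT libraries (n = 4) came from unedited cells, and knockout libraries (n = 4) from cells labelled as a Tead1/4 knockout. Tead1 and Tead4 encode TEAD factors, the DNA-binding partners of the Hippo pathway effectors YAP and TAZ. The labels do not say whether the knockout is 1 clone or a pool, which part of each gene was edited, or whether replicates were separate cultures. The p-values therefore measure only how these libraries vary, and that variation may be technical.

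Chaperones bind proteins that are unfolded or not yet folded and keep them from clumping while they reach their shape. HSP70 does so in cycles of ATP use that J proteins start and that nucleotide exchange factors (HSP110 and BAG proteins) reset. HSP90 takes over kinases and steroid receptors at a late stage, and the ring-shaped CCT chaperonin encloses actin, tubulin and other clients. Separate sets serve the cytosol, the endoplasmic reticulum (ER) and the mitochondrion. In the cytosol HSF1 is the main activator of the heat shock genes, and in the ER the unfolded protein response raises BiP and its partners. Proliferating tumour cells are known for high chaperone levels.

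Levels are CPM, read counts relative to a library's total after TMM scaling, and appear as mean ± SD over the 4 libraries of a genotype unless each library is given. Differences are log2 fold changes of knockout against WT, positive where the knockout is higher, with a standard error (SE). A gene is called changed where its adjusted p from edgeR's quasi-likelihood test over all 13265 rows tested is under 0.05. Total counts lay between 29679405 and 32774905 per library, and rows with a count between 14345 in knockout replicate 1 and 17948 in knockout replicate 3 (14566 to 15430 in WT). Tead1 was at 319, 155, 142 and 209 CPM in WT replicates 1 to 4 and at 51.2, 64.8, 76.3 and 77.8 in knockout replicates 1 to 4 (log2 fold change -1.61, SE 0.27, adjusted p = 0.00217). Tead4 was at 52.1, 36.7, 39.4 and 63.2 CPM in WT and at 25.8, 23.3, 31.2 and 37.01 in the knockout libraries, with overlap (-0.71, SE 0.22, adjusted p = 0.0261). Markers of several cell types were higher in the knockout libraries. Of 8 epithelial markers 3 were tested, and Krt18 rose from 38.5 ± 2.93 to 76.3 ± 8.65 CPM (0.99, adjusted p = 0.00107). Krt20 (34.6 and 47.4 CPM on average in WT and knockout) and Krt8 (0.328 and 0.896) did not pass, though Krt8 did not overlap, and Epcam, Cdh1, Cdx2, Vil1 and Krt19 had at most 0.127 CPM on average. Summed over the list the level was 56.7 to 106 CPM in WT and 105 to 143 in the knockout libraries. The leukocyte marker Lyz2 rose from 0.254 ± 0.185 to 2.39 ± 1.29 CPM (3.21, adjusted p = 0.00855), with Ptprc and Csf1r at most 0.0904 CPM on average and Cd3e and Adgre1 at 0. Of 6 fibroblast markers 5 were tested and 3 rose (60%, against 20.9% of all rows), Col3a1, Pdgfra and Dcn, the last from 0.0355 to 7.83 CPM on average. Col1a1 (0.12, adjusted p = 0.75) and Col1a2 (0.10, adjusted p = 0.716) did not pass. The sum over the list was mostly Col1a2 (1418 and 1519 CPM on average in WT and knockout). That sum overlapped between genotypes (1386 to 2071 CPM in WT and 1634 to 2284 in the knockout libraries). None of 4 endothelial markers was tested (at most 0.181 CPM on average). The part of these markers in the chaperone results was not tested.

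Knockout replicate 1 lay nearer to WT than the other knockout libraries for many chaperone genes. It was the highest knockout library for 22 of the 26 members that fell (84.6%), against 71.0% of all rows that fell. WT replicates 1 and 4 resembled each other, as did WT replicates 2 and 3 (chi-square per degree of freedom 34.7 and 35.0, against 201 to 242 for the other WT pairs), though neither pair differed by as little as sampling noise, and all were counted as separate libraries. In 22 of the 26 members that fell, WT replicates 1 and 4 both lay above WT replicates 2 and 3. Over all tested members this was so for 35 (48.6%), against 32.8% of all rows. The share among all rows that fell was not counted, so the 22 of 26 has no like figure beside it.

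Chaperone genes changed mostly downward in the knockout libraries. Of the 72 members tested, 26 fell and 7 rose. Among all rows tested 41.6% were called, 20.9% upward and 20.6% downward, so the share of members that were called (45.8%) was close to that of all rows. The share that fell was 36.1%, and the share that rose 9.72%. The median log2 fold change was -0.38 over the members and 0.02 over all rows. Changes were moderate in size: 11 of the 33 called members passed a 2-fold limit (4 higher, 7 lower), or 33.3%, against 53.9% of all called rows. The genotypes did not overlap for 34 members, or 47.2%, against 40.7% of all rows. Summed over all 92 genes, the level was 31416, 23335, 23616 and 29614 CPM in WT and 23340.1, 16286, 16696 and 16499.6 CPM in the knockout libraries, with knockout replicate 1 just above the lowest WT library. The counts moved with the scaling, as did those of all rows. Upper-quartile factors gave 17 decreases and 13 increases, with a median of -0.20 over the members and 0.20 over all rows. Library size only gave 19 and 11, also with medians of -0.20 and 0.20. Of all called rows 64.6% and 63.5% were higher under these scalings, against 50.4% with TMM. Without knockout replicate 2 or 3 20 members were called (14 and 15 lower), without knockout replicate 4 16 fell, and with WT replicates 2 and 3 alone, a choice made after seeing the data, 12 were called (7 lower). Calls fell over the whole table too: 29.3%, 28.5%, 30.3% and 21.5% of all rows were called in these fits, against 41.6% with all libraries.

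The compartments differed in these counts. In the cytosol and nucleus 19 of 44 tested members fell and 6 rose (43.2% and 13.6%), with a median log2 fold change of -0.53. In the ER 3 of 13 fell and 1 rose, with a median of 0.13. In the mitochondrion 2 of 8 fell and none rose by edgeR (0 rose and 3 fell at an unadjusted p under 0.05, and likewise with DESeq2 and limma-voom), with a median of -0.25. These are descriptions beside the 20.6% of all rows that fell, and the difference between compartments was not tested. The cytosolic median stayed negative under every alternative run, between -0.55 and -0.065. The ER median stayed positive (0.08 to 0.31) except with WT replicates 1 and 4 alone (-0.21) and where G2/M levels entered as covariate (-0.14). The mitochondrial median lay between -0.43 (without knockout replicate 1) and -0.083 (upper-quartile factors), and was 0.073 with that covariate. Without knockout replicate 2 or 3 the cytosolic calls numbered 16 and 15 in place of 25. The mitochondrial calls numbered 4 without knockout replicate 1, and 1 without any other library but WT replicate 3. The remaining members include 5 of vesicles and endosomes (2 tested, 1 lower) and 8 with no assigned place (5 tested, 1 lower).

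**Figure D1:**
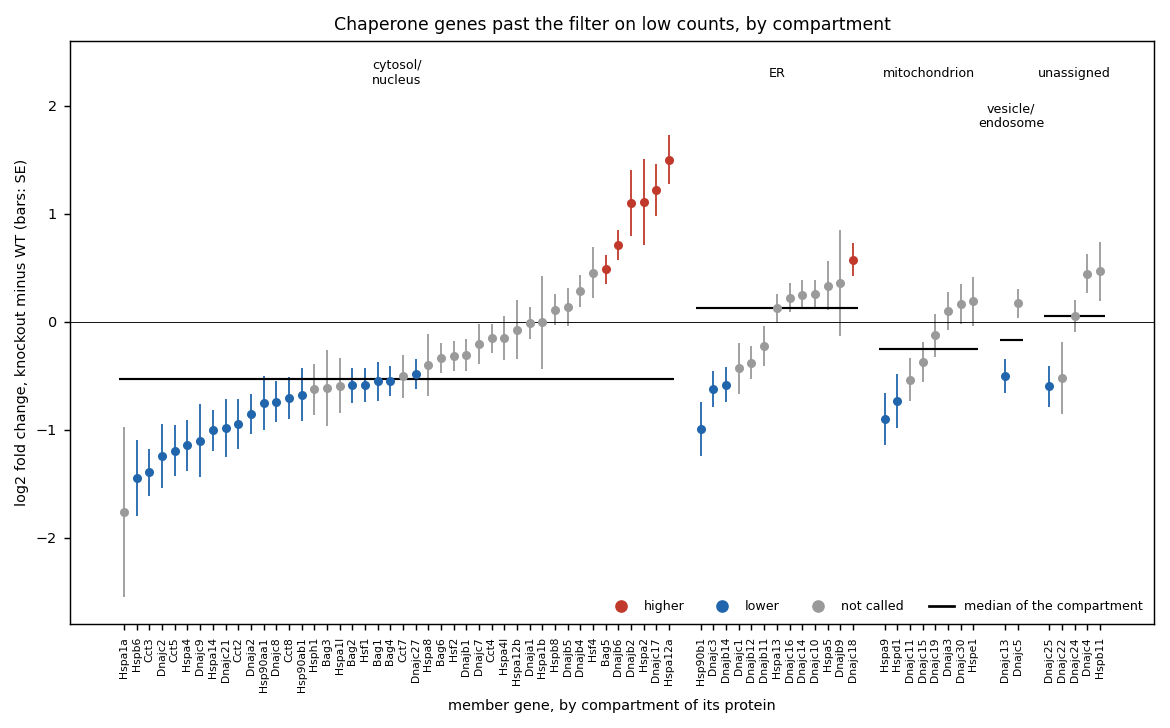
Log2 fold change (knockout minus WT, with SE as bars) of the 72 tested members, sorted within the compartment of their protein; red and blue mark members called higher and lower, grey those not called, and black lines the median of each compartment. The cytosolic genes run from -1.76 (Hspa1a, not called) to 1.498 (Hspa12a) around a median of -0.53, while the ER median is 0.13.

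Among the heat shock factors only Hsf1 passed the test. Hsf1, the master activator of the cytosolic response (GRCm38 chromosome 15, 76477422 to 76501913, plus strand), was at 152, 100.01, 108 and 137 CPM in WT replicates 1 to 4 and at 91.5, 80.8, 79.1 and 79.6 in the knockout libraries. All 4 knockout values lay below all 4 WT values. The log2 fold change was -0.59 (SE 0.16, adjusted p = 0.0165), and the call was lost without knockout replicate 3 (adjusted p = 0.0515). The call was also lost with the WT libraries summed in 2 pairs and with WT replicates 2 and 3 alone. Hsf2, a related factor, stood at 32.4 ± 4.05 against 26.1 ± 1.08 CPM (-0.31, adjusted p = 0.0898), and Hsf4, known from the lens, at 10.4 ± 1.45 against 14.3 ± 4.28 CPM (0.46, adjusted p = 0.143). Without WT replicate 3 Hsf2 passed (adjusted p = 0.0414). Hsf3 and Hsf5 had at most 0.152 CPM on average and were not tested.

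All 3 HSP90 genes among the members fell, against 20.6% of all rows. Trap1, the mitochondrial HSP90, is named outside the symbol rule. It was at 158 ± 7.90 in WT and 121 ± 27.1 CPM in the knockout libraries, with overlap, and did not pass (-0.38, adjusted p = 0.0863). Hsp90ab1, the constitutive cytosolic form, had the highest level of all members and was at 5624, 4358, 4462 and 5391 CPM in WT and 4383, 2708, 2775 and 2546 CPM in the knockout libraries. Knockout replicate 1 reached the lowest WT values, and the other knockout libraries lay well below them. The log2 fold change was -0.68 (SE 0.25, adjusted p = 0.0493). Hsp90aa1, the stress-inducible cytosolic form, was at 2259, 1435, 1533 and 1839 CPM in WT and 1539, 967, 852 and 844 CPM in the knockout libraries (-0.75, SE 0.25, adjusted p = 0.0376), again with overlap through knockout replicate 1. Hsp90b1, which encodes GRP94 of the ER lumen, fell from 2122 ± 628 to 1067 ± 183 CPM without overlap, and its values are given with the ER genes. Hsp90aa1 lost its call without WT replicate 1 or 4 (adjusted p = 0.098 and 0.0645) or knockout replicate 2, 3 or 4 (adjusted p = 0.0971, 0.095 and 0.106) and with upper-quartile factors (0.0609). Hsp90ab1 lost it without WT replicate 1, 2 or 4 (adjusted p = 0.099, 0.0587 and 0.0814) or knockout replicate 2, 3 or 4 (adjusted p = 0.125, 0.105 and 0.134), and also with upper-quartile factors (0.0856), library size only (0.0678), either other filter (0.0526 and 0.0656) and annotated genes only (0.0505). Both calls were also lost with the WT libraries summed in 2 pairs and with WT replicates 2 and 3 alone. Without knockout replicate 1 the decreases were larger, at -1.01 for Hsp90aa1 and -0.90 for Hsp90ab1.

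The constitutive HSP70 of the cytosol did not pass the test. Hspa8, which encodes HSC70, was at 4099, 1927, 2170.1 and 3511 CPM in WT and 2859, 2214, 2006 and 1819.8 CPM in the knockout libraries (-0.40, SE 0.29, adjusted p = 0.288). WT replicates 1 and 4 lay above every knockout library, and WT replicates 2 and 3 lay within the knockout range. The direction turned with WT replicates 2 and 3 alone (0.10), and with WT replicates 1 and 4 alone Hspa8 passed (-0.79, adjusted p = 0.0234). The stress-inducible forms Hspa1a and Hspa1b were low in both genotypes. Hspa1a was at 0.368, 0.956, 1.04 and 0.532 CPM in WT and 0, 0.213, 0.145 and 0.489 in the knockout libraries (-1.76, SE 0.79, adjusted p = 0.0964). Under sampling noise alone the count of 0 in knockout replicate 1 allows up to 0.0948 CPM. That library also had fewer rows with a count than the other knockout libraries (14345 against 17759 to 17948). Hspa1b was at 4.93, 3.28, 5.32 and 3.66 CPM in WT and 2.97, 8.86, 2.88 and 2.41 in the knockout libraries (-0.01, SE 0.43, adjusted p = 0.994), with knockout replicate 2 alone above the WT range and a direction that turned under other scalings. The sequences of these neighbours are nearly identical, and no source used here says how reads matching both were counted, which leaves their separate levels uncertain.

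Of the other cytosolic HSP70 genes, Hspa14 fell, and Hspa12a and Hspa2 rose. Hspa14, an HSP70 that sits with a J protein on the ribosome, was at 171, 157, 167 and 179 CPM in WT and 118, 81.4, 70.1 and 65.9 CPM in the knockout libraries, without overlap (-1.01, SE 0.19, adjusted p = 0.00367). Hspa12a, a distant and atypical relative, showed the largest increase of any member tested, from 22.9, 25.4, 21.9 and 13.8 to 62.8, 41.4, 69.8 and 63.1 CPM (1.498, SE 0.23, adjusted p = 0.00152). Every knockout library was above every WT library. Hspa2, known from male germ cells, was low at 0.916 ± 0.3697 and 1.98 ± 0.398 CPM (1.11, SE 0.40, adjusted p = 0.0488), and leaving out any 1 library ended its call (adjusted p between 0.0594 and 0.123). Hspa1l, beside Hspa1a on chromosome 17, was at 8.45 ± 1.66 and 5.61 ± 1.49 CPM (-0.59, adjusted p = 0.0873), and 71.9% of its exon bases lie opposite an antisense gene. Hspa12b, an endothelial form, was at 2.496 ± 0.215 and 2.38 ± 0.516 CPM (-0.07, adjusted p = 0.853).

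Among the exchange factors that reset HSP70, 1 of 3 HSP110 genes and 3 of 6 BAG genes fell (33.3% and 50%, against 20.6% of all rows). Hspa4, an HSP110 protein, was at 708, 387, 389 and 663 CPM in WT and 294, 226, 224 and 228 CPM in the knockout libraries (-1.14, SE 0.24, adjusted p = 0.00527). WT replicates 1 and 4 were far above WT replicates 2 and 3, and all of them were above the knockout values. The related Hsph1 stood at 489 ± 120.3 against 317 ± 80.2 CPM (-0.62, adjusted p = 0.0541) and passed without WT replicate 2 or 3 (adjusted p = 0.0411 and 0.043) or knockout replicate 1 (adjusted p = 0.022), and with all libraries by DESeq2 (0.0268) and limma-voom (0.048). Hspa4l was at 203 ± 27.2 and 183 ± 53.4 CPM (-0.15, adjusted p = 0.586), with a direction that turned under upper-quartile factors and library size only. Of the 6 BAG genes 1 rose (16.7%, against 20.9% of all rows). Bag4 (silencer of death domains) fell by 0.55 in log2 terms, from 37.7, 40.9, 43.6 and 37.9 to 32.5, 25.4, 26.7 and 24.9 CPM (adjusted p = 0.0119). Bag2, an inhibitor of the ubiquitin ligase CHIP, fell from 63.7, 60.5, 59.03 and 55.1 to 51.2, 37.2, 36.2 and 33.95 CPM (-0.59, adjusted p = 0.0153). In both the genotypes did not overlap.

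Bag1, the first BAG protein known to bind HSP70, was at 174 ± 17.9 in WT and 119 ± 29.3 CPM in the knockout libraries, with overlap (-0.55, SE 0.18, adjusted p = 0.0343). Bag5, with several BAG domains, was the member of the family that rose, from 49.1, 46.4, 48.3 and 47.6 to 58.5, 62.6, 73.8 and 72.6 CPM without overlap (0.48, SE 0.13, adjusted p = 0.0153). Bag3, the stress-inducible BAG protein of selective autophagy, was at 127, 41.9, 45.3 and 95.5 CPM in WT and 57.7, 62.4, 43.2 and 39.5 in the knockout libraries (-0.61, adjusted p = 0.183). Its WT replicates 1 and 4 stood above WT replicates 2 and 3 by more than the genotypes differed. It passed with WT replicates 1 and 4 alone (-1.15, adjusted p = 0.00554) and turned with WT replicates 2 and 3 alone (0.20). Bag6, which guards proteins on their way to membranes, was at 306 ± 18.9 against 243 ± 28.4 CPM (-0.33, adjusted p = 0.0763), with no overlap. The call for Bag1 was lost without WT replicate 1 or 4 (adjusted p = 0.0757 and 0.0713) or knockout replicate 2, 3 or 4 (adjusted p = 0.0881, 0.0959 and 0.101), that for Bag2 without knockout replicate 2, 3 or 4 (adjusted p = 0.0503, 0.0504 and 0.0514) and that for Bag5 without knockout replicate 3 (adjusted p = 0.0568). Upper-quartile factors and library size only also ended the calls of Bag1 (0.0757 and 0.0562) and Bag4 (0.0521 and 0.0539). Bag6 passed without knockout replicate 1 (adjusted p = 0.0257) and with DESeq2 (0.0309).

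**Figure D2:**
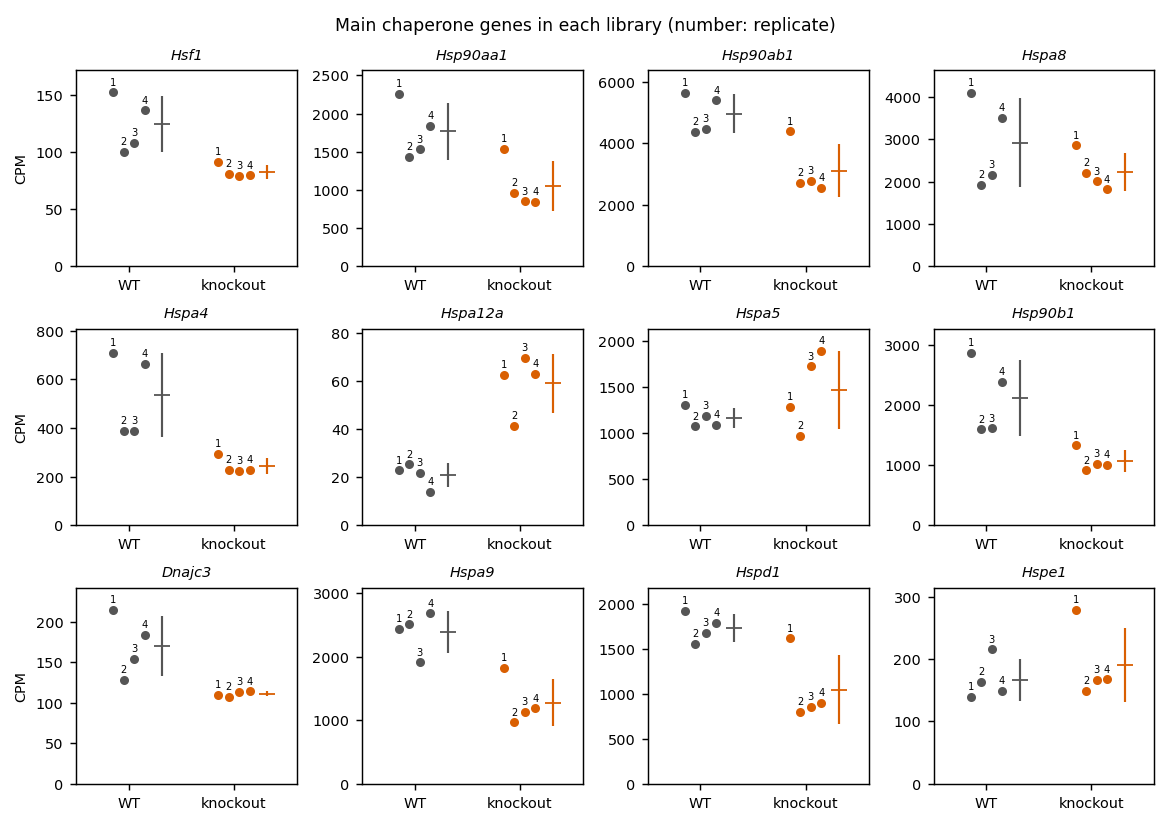
Level in CPM of 12 chaperone genes in each library, with the replicate number above each point and the mean ± SD (n = 4) to the right of each group; every vertical axis starts at 0. Hspa12a is higher in each knockout library, Hspa4, Hsp90b1, Dnajc3 and Hspa9 are lower in each, and knockout replicate 1 is the highest knockout library for Hsp90ab1, Hspd1 and Hspe1.

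The small heat shock proteins, which hold unfolded clients without ATP, were mostly near 0. The 20 members that were not tested had at most 0.718 CPM on average in either genotype, and 2 of them had no count in any library. Of 7 small heat shock protein genes 5 were not tested, among them Hspb1, which encodes HSP27, at 0.0368, 0.171, 0.303 and 0.106 CPM in WT and 0.158, 0.305, 1.28 and 1.13 in the knockout libraries. At these depths 3 counts correspond to 0.0873 to 0.110 CPM. Hspb6 fell from 42.9, 17.99, 18.5 and 45.6 to 16.5, 10.1, 8.96 and 10.3 CPM (-1.45, SE 0.35, adjusted p = 0.0104), with all knockout values under all WT values. Hspb8, the partner of BAG3, was at 85.2 ± 8.09 and 92.1 ± 11.99 CPM (0.11, adjusted p = 0.548).

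J proteins of the cytosol and nucleus changed in both directions. Of 14 tested, 6 fell and 3 rose (42.9% and 21.4%, against 20.6% and 20.9% of all rows). Dnajc2, the J protein of the ribosome-associated complex with Hspa14, fell from 166, 90.9, 87.97 and 192 to 80.5, 48.9, 47.3 and 49.6 CPM (-1.24, SE 0.29, adjusted p = 0.00921). Dnajc21, which helps recycle a ribosome assembly factor, fell from 95.3, 53.1, 46.8 and 109.9 to 39.4, 33.9, 39.96 and 41.3 CPM (-0.98, adjusted p = 0.0165). In both genes WT replicates 1 and 4 were the highest libraries. Dnajc9, which binds histones, fell from 88.8, 85.4, 78.2 and 86.5 to 72.3, 39.3, 24.8 and 21.6 CPM (-1.102, adjusted p = 0.0265), and Dnajc8, tied to the spliceosome, fell from 128 ± 31.6 to 76.996 ± 9.67 CPM (-0.74, adjusted p = 0.0129). Dnaja2, a general HSP70 partner, fell from 446, 328, 337 and 490.2 to 275, 207, 207 and 201 CPM (-0.85, SE 0.19, adjusted p = 0.00655). Dnajc27, a Rab-like GTPase with a J domain, fell by 0.48 in log2 terms (adjusted p = 0.0213).

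Those that rose were Dnajb6, Dnajb2 and Dnajc17. Dnajb6, which keeps polyglutamine proteins soluble, rose from 87.2, 105, 105 and 96.3 to 189.7, 161, 148 and 146 CPM (0.71, SE 0.14, adjusted p = 0.00407). Knockout replicate 1 was the highest library here. Dnajb2, known from neurons, rose from 16.2, 34.9, 42.5 and 17.7 to 48.5, 61.2, 64.4 and 64.4 CPM (1.101, SE 0.30, adjusted p = 0.017). WT replicates 1 and 4 were the lowest libraries for this gene. Dnajc17, a splicing-linked J protein, rose from 2.02, 2.94, 2.96 and 2.02 to 5.72, 5.69, 5.87 and 5.93 CPM (1.22, SE 0.24, adjusted p = 0.00427). The heat-inducible Dnajb1 stood at 78.1, 66.05, 81.7 and 76.1 CPM in WT and 75.4, 58.7, 55.3 and 54.5 in the knockout libraries (-0.31, adjusted p = 0.123), and passed without knockout replicate 1 (adjusted p = 0.0175). Dnaja1, the other main HSP70 partner of the cytosol, was at 230.2 ± 22.97 and 228 ± 30.2 CPM (-0.01, adjusted p = 0.957), and its direction turned with upper-quartile factors (0.17). Dnajb4, Dnajb5 and Dnajc7 did not pass and had log2 fold changes between -0.20 and 0.28. The call for Dnajc9 was lost without WT replicate 1 (adjusted p = 0.0597) or knockout replicate 2, 3 or 4 (adjusted p = 0.0662, 0.0635 and 0.0581), that for Dnajc21 without knockout replicate 2 (adjusted p = 0.0523) and that for Dnajc27 without WT replicate 2 (adjusted p = 0.0569) or knockout replicate 2, 3 or 4 (adjusted p = 0.0506, 0.0791 and 0.0588).

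Outside these compartments Dnajc13, an endosomal J protein, fell from 212, 177, 152 and 219.5 to 152, 135, 128 and 124 CPM (-0.50, adjusted p = 0.0273). Its call was lost without WT replicate 1 or 4 (adjusted p = 0.0698 and 0.0604) or knockout replicate 2, 3 or 4 (adjusted p = 0.0679, 0.0783 and 0.0819). Dnajc5, the cysteine string protein of vesicles, was at 207 ± 17.7 and 234 ± 23.7 CPM (0.17, adjusted p = 0.329). Dnajc4, Dnajc22, Dnajc24 and Hspb11, with no assigned place, did not pass and had log2 fold changes between -0.52 and 0.47. Dnajc25, a J protein of uncertain role, fell from 22.02 ± 4.52 to 14.6 ± 2.08 CPM (-0.60, adjusted p = 0.0303), and its call was lost without WT replicate 1 or 4 (adjusted p = 0.0805 and 0.0556) or knockout replicate 2, 3 or 4 (adjusted p = 0.0699, 0.0688 and 0.0904). Upper-quartile factors and library size only ended the calls of Dnajc13 (0.0775 and 0.0727), Dnajc25 (0.0808 and 0.0829) and Dnajc27 (0.134 and 0.149).

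The CCT chaperonin had 6 tested subunit genes among the members, and 4 of them fell (66.7%, against 20.6% of all rows). Cct3 (GRCm38 chromosome 3, 88297116 to 88321767, plus strand) fell most, from 624, 514, 522 and 644 to 317, 199.7, 179 and 182 CPM (-1.39, SE 0.21, adjusted p = 0.00159). Cct5 fell from 1013, 826, 769 and 1021 to 599.8, 344, 329.8 and 316 CPM (-1.19, SE 0.24, adjusted p = 0.00461) and Cct2 from 1243, 873, 824 and 1314 to 749, 473, 483 and 500.2 CPM (-0.95, SE 0.23, adjusted p = 0.0105). In all of them each knockout library was below each WT library, and knockout replicate 1 lay between the genotypes. Cct8 fell from 518, 453, 499.9 and 554 to 437, 275, 263 and 266 CPM (-0.71, SE 0.19, adjusted p = 0.0171), a call that was lost without knockout replicate 2, 3 or 4 (adjusted p = 0.0567, 0.0519 and 0.056). Cct7 was at 599, 657, 686 and 656 CPM in WT and 655, 403, 386 and 388 in the knockout libraries (-0.50, SE 0.20, adjusted p = 0.0672). Knockout replicate 1 was inside the WT range, and without it Cct7 passed (-0.74, adjusted p = 0.00199). With all libraries it passed with DESeq2 (0.0291) and limma-voom (0.0436).

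Cct4 did not pass, at 383, 351, 419 and 402 CPM in WT and 385, 331, 349 and 335 in the knockout libraries (-0.15, SE 0.13, adjusted p = 0.378). Its genotypes overlapped, and its direction turned with upper-quartile factors and library size only (0.03 under both). The log2 fold changes of the other 5 subunit genes stayed negative under every scaling. The testis forms Cct6b and Cct8l1 had at most 0.291 CPM on average, and Cct6a was not analysed here. Tcp1, which encodes the remaining subunit and is named outside the symbol rule, fell from 1121 ± 203 to 570.2 ± 144 CPM (-0.98, SE 0.22, adjusted p = 0.00742). Prefoldin is the complex that hands clients to CCT. Of 9 genes in a list of Tcp1, prefoldin subunits and phosducin-like CCT cofactors, 1 fell (Tcp1) and 3 rose, with a median log2 fold change of 0.01 (44.4% called, against 41.6% of all rows). The prefoldin gene Pfdn5 rose from 88.8 ± 12.9 to 143 ± 6.63 CPM (0.68, adjusted p = 0.00494) and the cofactor gene Pdcl by 0.50 in log2 terms (adjusted p = 0.0305).

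**Figure D3:**
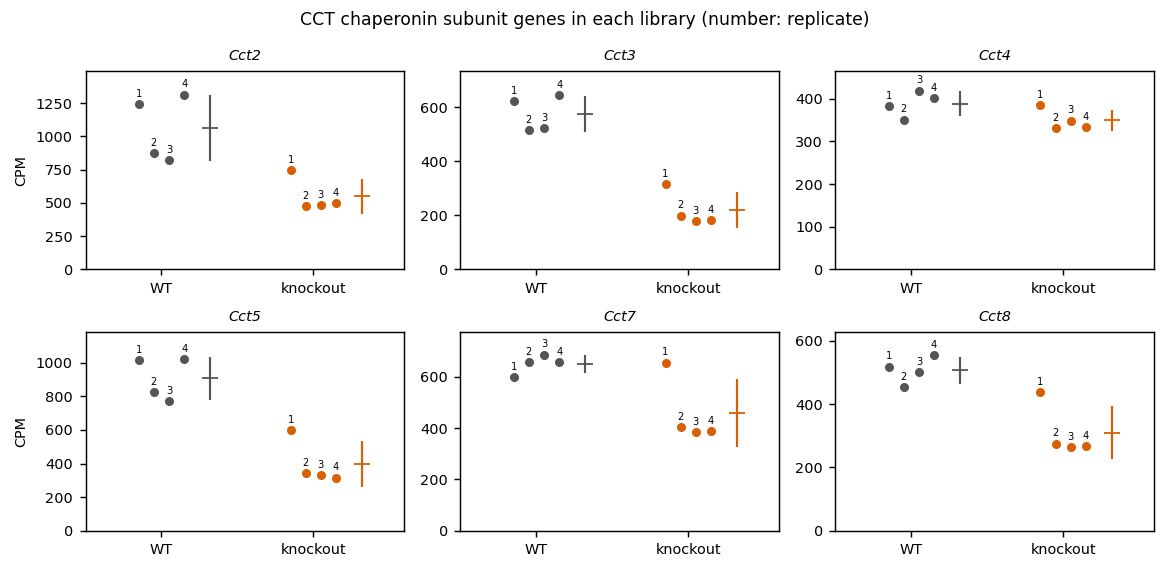
Level in CPM of the 6 tested CCT subunit genes in each library, with replicate numbers and mean ± SD (n = 4); every vertical axis starts at 0. Knockout replicates 2, 3 and 4 lie below all WT libraries for each gene, Cct3 most of all, while knockout replicate 1 lies within the WT range for Cct4 and Cct7.

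Co-chaperones of the cytosol, listed apart from the members, had 6 decreases among 18 genes and no increase by edgeR (0 also at an unadjusted p under 0.05, with DESeq2 and with limma-voom), with a median log2 fold change of -0.45. That is 33.3% called, all lower, against 41.6% of all rows called and 20.6% lower. Ppid, a cyclophilin that binds HSP90, fell from 238 ± 47.2 to 77.1 ± 18.3 CPM (-1.63, adjusted p = 0.000817). The HSP90-bound phosphatase gene Ppp5c fell by 1.19 in log2 terms (adjusted p = 0.00609). Tomm70a, a mitochondrial docking receptor for HSP70 and HSP90, fell by 0.71 (adjusted p = 0.00663). The other 3, named after their values were seen, were Nudc (-1.32), Stip1 (-1.28), the adaptor HOP between HSP70 and HSP90, and Hspbp1 (-0.73).

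ER chaperones did not move together. Hspa5, which encodes BiP, the HSP70 of the ER (GRCm38 chromosome 2, 34771970 to 34777547, plus strand), was at 1304, 1073, 1187 and 1093 CPM in WT and 1286, 968, 1725 and 1893 CPM in the knockout libraries. Knockout replicates 3 and 4 were above every WT library and knockout replicate 2 was below every one. The log2 fold change was 0.33 (SE 0.23, adjusted p = 0.263). Hsp90b1 (GRP94; GRCm38 chromosome 10, 86690209 to 86705509, minus strand) was at 2880.3, 1597, 1616 and 2396 CPM in WT and 1332, 913, 1019 and 1004 CPM in the knockout libraries (-0.99, SE 0.25, adjusted p = 0.0113). Each knockout library was below each WT library, and the call was lost with WT replicates 2 and 3 alone. That fit kept 11 of the 33 member calls. It also ended calls of cytosolic members, among them Hsf1, Hsp90aa1, Hsp90ab1, Hspb6, Cct2, Cct8, Dnajc2, Dnajc8, Dnajc9, Dnajc21, Bag1, Bag2 and Bag5. Dnajc3 (P58IPK), a J protein of BiP and inhibitor of the kinase PERK, fell from 215, 129, 154 and 184 to 109.6, 108, 113 and 114 CPM (-0.62, SE 0.17, adjusted p = 0.0158). Its call too was lost with WT replicates 2 and 3 alone.

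These 3 genes are classical targets of the unfolded protein response, and the bases before their start sites are shown because each holds the ER stress response element, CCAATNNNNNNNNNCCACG, on one strand or the other. The stretches are from RefSeq (GRCm38.p6), 5′ to 3′ on the strand of the gene, with the element in capitals; the stretch of Hspa5 lies in an exon of a longer annotated transcript (GENCODE M21), the others before or at the first exon.
Hspa5, chr2:34772020-34772048, plus strand: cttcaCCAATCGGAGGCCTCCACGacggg
Hsp90b1, chr10:86705493-86705694, minus strand: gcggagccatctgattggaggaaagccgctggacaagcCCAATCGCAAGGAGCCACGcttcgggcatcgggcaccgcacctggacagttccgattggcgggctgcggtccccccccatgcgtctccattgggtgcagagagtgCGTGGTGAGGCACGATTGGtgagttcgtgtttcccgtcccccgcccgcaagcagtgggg
Dnajc3, chr14:118937787-118937885, plus strand: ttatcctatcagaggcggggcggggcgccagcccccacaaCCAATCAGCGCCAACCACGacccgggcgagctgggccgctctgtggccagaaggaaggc

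Hsp90b1 holds the element at 2 places in that window, Hspa5 and Dnajc3 at 1. The motif was found in the promoter windows of 37 of 27025 genes (0.137%). No other member's window held it. The ratio of Hsp90b1 to Hspa5 within a library, chosen after the values were seen, was 2.21, 1.49, 1.36 and 2.19 in WT replicates 1 to 4 and 1.04, 0.944, 0.591 and 0.531 in the knockout libraries. The ratio of Dnajc3 to Hspa5 was 0.165, 0.12, 0.13 and 0.169 in WT and 0.0852, 0.111, 0.0657 and 0.0603 in the knockout libraries. Both ratios were lower in each knockout library than in any WT library, which is a description with no test, since the pairs were picked for how their genes differed. A match describes letters in a window and not binding.

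Of the other 10 ER members 1 rose and 1 fell. Dnajc18, a membrane J protein, rose from 30.5, 33.1, 33.8 and 25.6 to 38.4, 52.2, 48.3 and 44.2 CPM (0.57, adjusted p = 0.0142), and Dnajb14, another J protein of the ER membrane, fell from 60.4, 46.1, 43.97 and 50.8 to 27.8, 31.5, 39.2 and 35.8 CPM (-0.58, adjusted p = 0.0174). The call for Dnajb14 was lost without knockout replicate 2 (adjusted p = 0.0562) and under both upper-quartile and library-size scaling (0.0758 and 0.102). The calls of Dnajc18 and Dnajb14 were both lost with the WT libraries summed in 2 pairs and with WT replicates 2 and 3 alone. Dnajc10 (ERdj5), a disulfide reductase with a J domain, was at 261, 304, 284 and 273 CPM in WT and 317, 347, 337 and 343 in the knockout libraries, which did not overlap (0.26, adjusted p = 0.12). It passed with upper-quartile factors (adjusted p = 0.0264), library size only (0.0312), the 5 CPM filter (0.0494) and DESeq2 (0.0319). Dnajb9 (ERdj4), a repressor of IRE1, was at 55.2, 14.4, 14.4 and 55.7 CPM in WT and 24.96, 38.5, 54.97 and 60.7 in the knockout libraries (0.36, adjusted p = 0.575). WT replicates 2 and 3 stood far below WT replicates 1 and 4, and it passed with WT replicates 2 and 3 alone (1.62, adjusted p = 0.0234), while the direction was negative with WT replicates 1 and 4 alone. Dnajb11 (ERdj3) was at 110.3 ± 3.28 and 94.3 ± 26.1 CPM (-0.23, adjusted p = 0.339) and passed without knockout replicate 1 (adjusted p = 0.0123). Hspa13, a microsomal HSP70, was at 62.7 ± 1.98 and 68.4 ± 7.201 CPM (0.13, adjusted p = 0.444). The ER genes Dnajb12, Dnajc1, Dnajc14 and Dnajc16 had log2 fold changes between -0.43 and 0.25 and none passed the edgeR test (1 at an unadjusted p under 0.05, 1 with DESeq2 and 0 with limma-voom).

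Among 18 other ER folding genes 5 fell and 1 rose, with a median log2 fold change of -0.29. The 27.8% that fell and 33.3% called stand beside 20.6% and 41.6% of all rows. Txndc5, a disulfide isomerase, fell from 550.3 ± 41.4 to 368 ± 39.5 CPM (-0.58, adjusted p = 0.0112), and Creld2, a stress-inducible ER gene, by 0.68 in log2 terms (adjusted p = 0.0142). Sdf2, part of an ER chaperone complex, rose from 19.6 ± 4.88 to 46.7 ± 3.53 CPM (1.25, adjusted p = 0.00142). The other decreases, named after their values were seen, were Calr (-0.96), a lectin chaperone, Manf (-0.61) and the disulfide isomerase gene Pdia3 (-0.64). Hyou1, the exchange factor of BiP, was at 246 ± 16.2 and 243 ± 28.4 CPM (-0.02, adjusted p = 0.926).

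In the mitochondrion the genes of the main HSP70 and of HSP60 fell, and that of HSP10 did not pass. Hspa9 (mortalin), the HSP70 that pulls proteins into the matrix, was at 2439, 2512, 1914 and 2684 CPM in WT and 1824, 966, 1135 and 1189 CPM in the knockout libraries (-0.90, SE 0.24, adjusted p = 0.0146), without overlap. Its call was lost with the WT libraries summed in 2 pairs and with WT replicates 2 and 3 alone. Hspd1, which encodes the HSP60 ring, was at 1918, 1557, 1672 and 1785 CPM in WT and 1616, 802, 857 and 896 CPM in the knockout libraries (-0.73, SE 0.25, adjusted p = 0.0387). Knockout replicate 1 lay just above the lowest WT library, and the other knockout libraries lay far below all of WT. Hspe1, which encodes the HSP10 lid of that ring, was at 139, 163, 215 and 149 CPM in WT and 278, 148, 167 and 167 CPM in the knockout libraries (0.19, SE 0.23, adjusted p = 0.518). Its direction turned without knockout replicate 1 (-0.07). The call for Hspd1 was lost without WT replicate 1, 2 or 4 (adjusted p = 0.0847, 0.0531 and 0.0658) or knockout replicate 2, 3 or 4 (adjusted p = 0.11, 0.0968 and 0.105), with upper-quartile factors (0.0639) and with WT replicates 1 and 4 alone (0.0536). Summing the WT libraries in 2 pairs, or keeping only WT replicates 2 and 3, ended the Hspd1 call as well. Without knockout replicate 1 the log2 fold change of Hspd1 was -1.04 (adjusted p = 0.00114).

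Hspd1 (chromosome 1, 55077835 to 55088243, minus strand) and Hspe1 (chromosome 1, 55088132 to 55091307, plus strand) lie head to head, and their start sites share 1 stretch of DNA. It is shown on both strands because it holds the heat shock element GAANNTTCNNGAA at 2 overlapping places, 1 on each strand (capitals; RefSeq, GRCm38.p6, 5′ to 3′), and it lies in an annotated exon of Hspd1 and upstream of Hspe1. The same element in the window of Dnajb6, a member that rose, is shown beside it and lies in an exon of Dnajb6.
Hspd1, chr1:55088053-55088082, minus strand: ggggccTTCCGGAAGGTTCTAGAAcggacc
Hspe1, chr1:55088053-55088082, plus strand: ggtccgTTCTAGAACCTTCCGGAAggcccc
Dnajb6, chr5:29735844-29735872, plus strand: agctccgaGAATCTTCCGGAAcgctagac

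The ratio of Hspd1 to Hspe1 within a library, also chosen after the values were seen, was 13.8, 9.55, 7.77 and 12 in WT replicates 1 to 4 and 5.8, 5.4, 5.13 and 5.36 in the knockout libraries. All knockout libraries, replicate 1 included, fell in a narrow range below WT, again a description with no test. Knockout replicate 1, which stood apart in the level of each gene, did not stand apart in their ratio. Exons of the genes overlap on opposite strands over 112 bases (7.60% of the exon bases of Hspe1), and no source used here says whether counting used strand.

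**Figure D4:**
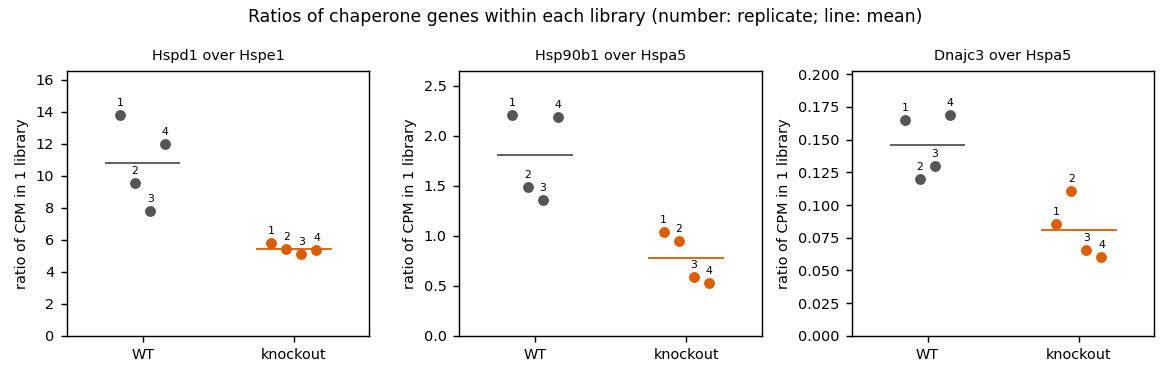
Ratio of CPM of 2 chaperone genes within each library, with the replicate number above each point and the mean as a line; every vertical axis starts at 0. The ratio of Hspd1 to Hspe1 lies between 5.13 and 5.8 in the knockout libraries and between 7.77 and 13.8 in WT, and the ratios of Hsp90b1 and Dnajc3 to Hspa5 are also lower in each knockout library.

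None of the 5 mitochondrial J protein genes among the members passed the edgeR test (1 at an unadjusted p under 0.05, and 1 with DESeq2 and limma-voom). Dnajc11, linked to the cristae complex, was closest, at 182, 147, 142 and 182 CPM in WT and 158, 105, 94.8 and 92.7 in the knockout libraries (-0.54, SE 0.20, adjusted p = 0.0507). Knockout replicate 1 lay within the WT range, and without it Dnajc11 passed (adjusted p = 0.00301). It also passed with limma-voom (0.0376) and DESeq2 (0.0279). Dnaja3, the matrix partner of mortalin, was at 90.5 ± 15.7 and 96.9 ± 16.7 CPM (0.10, adjusted p = 0.68). Dnajc15, Dnajc19 and Dnajc30 had log2 fold changes between -0.37 and 0.16. Of 14 other mitochondrial chaperone and protease genes 2 fell and 1 rose, with a median of -0.01 (21.4% called, against 41.6% of all rows). Hscb, a J protein of iron-sulfur cluster assembly named outside the symbol rule, rose from 6.99 ± 0.945 to 13.1 ± 0.644 CPM (0.91, adjusted p = 0.00363). Clpp, a matrix protease, fell by 0.61 (adjusted p = 0.0262) and Timm44, which anchors mortalin at the import channel, by 0.51 in log2 terms (adjusted p = 0.0352).

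Per kb of exon, the order of levels was led by Hsp90ab1 in both genotypes (1653 ± 214 CPM per kb in WT and 1035 ± 286 in the knockout libraries). In WT Hspa8 (680.5 ± 243), Hspd1 (656 ± 58.5), Hspa9 (554 ± 76.97), Hsp90b1 (526 ± 156) and Hsp90aa1 (449 ± 94.3) followed. Neighbours among these differed by less than the larger of their SDs, except that Hspd1 stood above Hspa9 by more than either SD. Hspa5 was the ninth in WT at 275 ± 25.02 CPM per kb and the fourth in order in the knockout libraries at 347 ± 99.4. Hspa8 held the second place in both genotypes. Lengths are those of all annotated exons merged, so a gene with many isoforms is set too low.

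Levels of the groups by library show how the libraries compare. Relative to its mean over the 8 libraries, the log2 level of the 6 CCT genes stood at 0.49, 0.28, 0.33 and 0.57 in WT replicates 1 to 4 and 0.07, -0.55, -0.59 and -0.60 in knockout replicates 1 to 4. For the ER members it was 0.22, -0.12, -0.12 and 0.15 in WT and -0.11, -0.10, 0.05 and 0.04 in the knockout libraries, so the genotypes overlapped. For the mitochondrial members it was 0.11, 0.15, 0.11 and 0.21 in WT, with knockout replicate 1 the highest of all at 0.28 and the other knockout libraries at -0.35, -0.25 and -0.27. Genes of the G2/M phase of the cell cycle also differed. Of 12 such genes 7 fell (58.3%, against 20.6% of all rows) and none rose by edgeR (0 also at an unadjusted p under 0.05, with DESeq2 and with limma-voom). Their mean log2 level was 1.07, 0.93, 0.94 and 0.86 in WT and 0.55, -0.79, -1.61 and -1.95 in the knockout libraries. Their part in the chaperone result cannot be told apart from the genotype, since the levels do not overlap. With that level as a covariate 1 member was called (Dnajb6, adjusted p = 0.0212), and 5.41% of all rows.

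**Figure D5:**
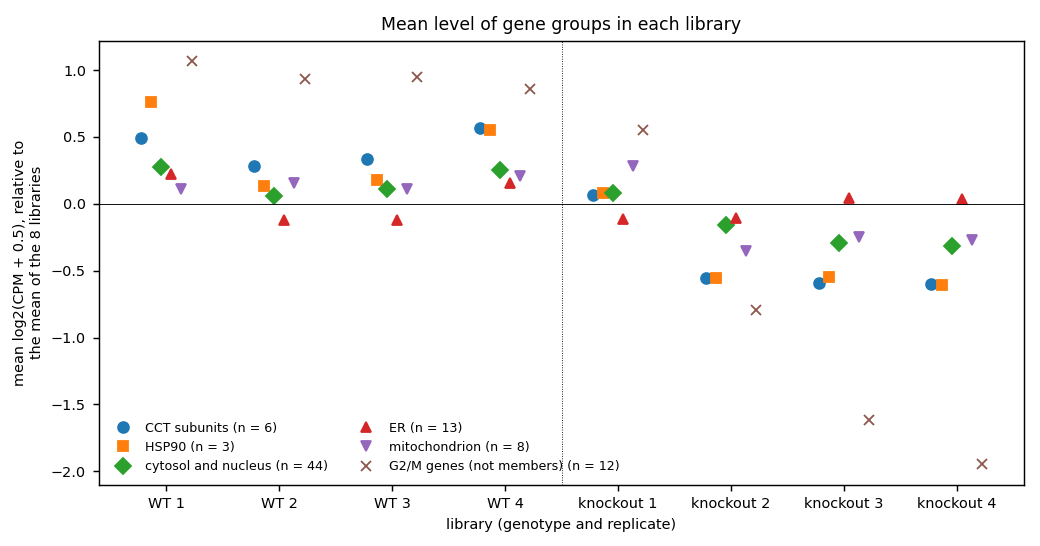
Mean log2(CPM + 0.5) of gene groups in each library, relative to the mean of the 8 libraries; the dotted line parts WT from knockout and n is the number of genes. CCT and HSP90 genes are lower in knockout replicates 2 to 4 and near the middle in knockout replicate 1, ER genes overlap between genotypes, and G2/M genes (not chaperones) are highest in WT.

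Of the 92 members 74 had an entry in the RefSeq promoter table, which holds 250 bases before and 50 after a start site, and 57 of these were tested. The heat shock element was found for 4 of the 57 (Dnajb6, Hspd1, Hspe1 and Hsph1), or 7.02%, against 0.662% of all genes in the table. Of these Dnajb6 rose, Hspd1 fell, and Hspe1 and Hsph1 did not pass. The TEAD motif GGAATG, on either strand, was found for 9 of the 57 (15.8%), against 16.6% of all genes. Among the called members it was in the windows of Bag5 and Dnajb2, which rose, and of Cct3 and Cct8, which fell. These motifs describe letters only, and the windows do not cover distant sites.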

How the data were processed

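Total RNA was extracted with TRIzol and made into mRNA libraries with a Hieff NGS kit, per the labels' protocols (4 WT and 4 knockout libraries). The authors deposited raw read counts per gene, and reads were aligned with HISAT2 to GRCm38 and assembled with StringTie, per the submitters' processing notes. Not given in the sources used here are versions, the counting program, strand use and the treatment of reads with several matches. Of the 2 deposited tables of counts, with the same values, the one with symbols was used.

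Rows were filtered with filterByExpr (minimum count 10, total 15), scaled by TMM and put through the quasi-likelihood test of edgeR 4.0.16 (R 4.3.3), two-sided, with Benjamini-Hochberg adjustment over all 13265 rows and a threshold of 0.05. SEs are the log2 fold change divided by the root of F. The steps were tested on simulated data. Alternatives were other scalings (DESeq2 1.42.0 size factors, upper-quartile factors, library size), filters (none, or 5 CPM in 4 libraries), DESeq2's Wald test, limma-voom (limma 3.58.1), a replicate block, annotated genes only, a G2/M covariate and each library left out. Fits with the WT libraries summed or split in pairs were chosen after seeing the data. Replicate numbers did not pair the libraries.

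The members and gene lists were chosen with earlier results of these data known, and so were the compartments. Named are all called members, the main chaperones whether called or not, and up to 3 called genes of smallest p of each other list; values by library are given for the main chaperones and the leading genes of each family. Promoter windows (250 bases before and 50 after the start) were searched on both strands for GAANNTTCNNGAA, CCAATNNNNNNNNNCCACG and GGAATG, and heat shock elements may overlap. Of the tested members 27 share exon bases with another gene (24 on the opposite strand, 9 on the same), and reads there cannot be told apart without strand. Hspa8, Hspd1 and Hspe1 have processed pseudogenes, so their levels also depend on how reads with several matches were counted. Exon lengths are from GENCODE M21. Of the leukocyte markers, 1 is not reported here.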

Additional observations from a re-analysis of the deposited data

Results flagged for a closer look

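In 14 of 112 groups of 4 libraries 1 library stood far from the other 3 of its genotype. For a single group of normal values chance does so about 1 time in 20. The groups come from the same 8 libraries and are not independent, so the 14 cannot be set against that rate. In 12 of the 14 flagged groups the library was knockout replicate 1, above the other knockout libraries. Its levels were 91.5 CPM for Hsf1, 4383 CPM for Hsp90ab1, 294 CPM for Hspa4, 1616 CPM for Hspd1, 278 CPM for Hspe1, 275 CPM for Dnaja2 and 80.5 CPM for Dnajc2. For the chaperonin they were 749 CPM for Cct2, 317 CPM for Cct3, 599.8 CPM for Cct5, 655 CPM for Cct7 and 437 CPM for Cct8. For Hspd1, for example, the other knockout libraries lay between 802 and 896 CPM, and for Hsp90ab1 between 2546 and 2775 CPM. Knockout replicate 2 stood above the others for Hspa1b at 8.86 CPM, and WT replicate 4 below the others for Hspa4l at 163 CPM.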

How the results depend on the processing

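With each library left out in turn the number of members called lay between 20 and 42 (5 to 7 higher, 14 to 35 lower, 15 to 29 in the cytosol and nucleus, 3 to 6 in the ER and 1 to 4 in the mitochondrion). In the same fits the share of all rows called lay between 28.5% and 49.4%. Counts also moved with upper-quartile factors (13 higher, 17 lower, 1 in the mitochondrion) and library size only (11 higher). Of all called rows 64.6% and 63.5% were higher under these scalings, against 50.4% with TMM. With a G2/M covariate 1 member was called (1 higher and 0 lower by edgeR; 1 in the cytosol, 0 in the ER and 0 in the mitochondrion), a level that does not overlap between the genotypes. Of the fits chosen after seeing the data, WT libraries summed in 2 pairs gave 15 calls (3 higher, 12 lower; 13, 2 and 0 in cytosol, ER and mitochondrion), and WT replicates 2 and 3 alone gave 12 (7 lower; 11, 1 and 0). Of all rows 5.41% were called with the covariate, 21.8% with the WT libraries summed and 21.5% with WT replicates 2 and 3 alone. Of the 33 member calls, 15 remained with the summed WT libraries and 11 with WT replicates 2 and 3 alone. With WT replicates 2 and 3 alone the lost calls came from the cytosol, the ER and the mitochondrion. The cause of these changes was not tested.

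The log2 fold changes that turned direction were those of genes not called, except Dnajc9. Under upper-quartile factors and library size only they were 0.182 and 0.177 for Hspa1b, 0.028 and 0.025 for Hspa4l, 0.167 and 0.166 for Dnaja1, and 0.025 and 0.026 for Cct4. Hspa1b also turned with DESeq2 size factors (0.0056), DESeq2's test (0.0057), no filter (0.014) and annotated genes only (0.026), and lay between -0.633 and 0.201 with 1 library left out. Dnaja1 also turned with no filter (0.0076), the 5 CPM filter (0.066), annotated genes only (0.017) and WT replicates 2 and 3 alone (0.051), and lay between -0.088 and 0.060 with 1 library left out. Hspe1 lay between -0.066 (without knockout replicate 1) and 0.319 with 1 library left out and turned also with WT replicates 2 and 3 alone (-0.0054), as did Hspa8 (0.10), Dnaja3 (-0.037) and Bag3 (0.20), and Dnajb9 with WT replicates 1 and 4 alone (-0.32). With the G2/M covariate the values were 0.43 for Hspa1b, 0.087 for Hspa8, -0.12 for Hspa5, -0.14 for Hspa13, 0.10 for Hspa4l, 0.28 for Dnaja1, 0.044 for Dnajb1, -0.69 for Dnajb9, 0.35 for Dnajb11, 0.067 for Dnajc9, 0.025 for Dnajc11 and 0.040 for Cct7.

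The replicate block left 27 members called (5 higher, 22 lower), of which 26 were called without it. It ended the calls of Hsp90ab1 (adjusted p = 0.0678), Hspa2 (0.106), Dnajb14 (0.0514), Dnajc13 (0.0545), Dnajc25 (0.0536), Dnajc27 (0.0672) and Bag5 (0.0531), and added Dnajc11 (0.0432). Same-numbered libraries did not deviate together (correlations of -0.044 to 0, and 0 of 8 libraries closest to its own number), so the numbers are not treated as pairs. Genes near 1 CPM are limited by depth.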
